A study of Mus musculus with 8 samples.

Results

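Complement genes were examined in bulk RNAseq libraries of cells sorted as pericytes and as SMCs (smooth muscle cells) from mouse hindlimb muscle. The 9 genes C1qa, C1qb, C1qc, C2, C3, C4b, Cfb, Cfd and Serping1 were taken by name from the 37979 genes of the deposited table, and each matched a single row. The donors were Ai14+/-;SM22α-Cre+ mice of both sexes, aged 3 to 4 months. Among PDGFRβ+ cells, those without tdTomato were taken as pericytes and those with tdTomato as SMCs. Both groups therefore carried the Ai14 reporter and the SM22α promoter-driven Cre, which labels any cell that has once expressed SM22α. Per the methods, the gate left out cells stained for CD31 or CD45 and DAPI-high cells, although the legend of the gating plots writes both populations as CD31+. Each group had 4 libraries, numbered from 1 to 4, and each library pooled about 60000 cells from multiple sorts. The batch of each library is not given in the sources used here, so an effect of batch was not tested. The paper proposes individual differences and batch effects as possible reasons for the variation among replicates. Values are FPKM, fragments scaled to both library size and transcript length, so levels of different genes can be set side by side.

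Complement is a cascade of mostly secreted proteins that tags targets for phagocytes and can form pores in membranes. In the classical pathway C1q, assembled from the chains of C1qa, C1qb and C1qc, binds antibody or cell debris and switches on the proteases C1r and C1s, which cleave C4 and C2. In the alternative pathway factor D (adipsin, Cfd) cleaves factor B (Cfb) once it is bound to C3b, and both pathways meet at C3. Serping1 encodes C1 inhibitor, which blocks C1r and C1s. Hepatocytes supply much of the circulating complement, whereas in other tissues macrophages are the usual source of C1q and fibroblasts are a usual source of C1r, C1s and C1 inhibitor. Adipocytes are the best known source of factor D.

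The cells behind the labels were checked with marker lists, each summarized per library as the mean of log2(FPKM + 1) over its genes. The list of 8 pericyte genes, which holds Pdgfrb and Rgs5, was at 2.04 to 3.51 in pericyte libraries and 3.02 to 5.14 in SMC libraries, and 1 of the 8 genes (Rgs5) passed the test, higher in SMCs. Pdgfrb, Kcnj8 and Anpep were higher in SMCs only at an unadjusted limma p under 0.05. The label of the pericyte libraries is thus not matched by higher pericyte markers. The list of 8 lymphocyte genes was at 7.53 to 8.18 in pericyte libraries and 1.82 to 2.68 in SMC libraries, and all 8 were higher in pericytes. The 8 smooth muscle genes, among them Myh11 and Acta2, were at 5.25 to 6.75 in pericytes and 6.06 to 8.37 in SMCs, and limma called 0 of them (4 were higher in SMCs at an unadjusted p under 0.05). The 8 endothelial genes were at 2.87 to 3.79 in pericytes and 4.76 to 6.63 in SMCs, and 6 of them were higher in SMCs. The hepatocyte list was at most 1.14 in any library, with Ambp listed at 0 in all 8, although Fgb reached 9.13 FPKM in pericyte replicate 1 and 13.0 FPKM in SMC replicate 1 and Ttr reached 6.98 FPKM in SMC replicate 2. Relative depths, estimated from low FPKM values, lay between 0.865 and 1.05 for pericytes and between 0.987 and 1.07 for SMCs. The sum of FPKM was 1190440 in pericyte replicate 2 and between 656405 and 782014 in the other 7 libraries. The 6 calls given next held when each library was scaled to the same sum. In such bulk samples fewer cells of a type and less RNA per cell cannot be told apart.

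Of the 9 complement genes, 6 were higher in SMCs and 0 were higher in pericytes (0 also at an unadjusted p under 0.05), both in limma's test of log2(FPKM + 1) with a q value below 0.05 and with the added requirement of a log2 fold change above 2. These were the genes of all 3 C1q chains, C2, Cfb and Serping1. Among all 27414 genes tested, 11.2% were higher in SMCs at that q value and 2.66% also passed the fold threshold. The median log2 difference of the 9 genes, SMCs minus pericytes, was 3.03, against -0.02 over all genes tested. In the same 6 genes the SMC and pericyte libraries did not overlap. Over all genes, 12.5% had their SMC libraries above all pericyte libraries. C3, C4b and Cfd did not pass. With the replicate number as a block C3 and C4b did pass (limma q = 0.0263 and 0.0245), although pairing by number was not established. All 9 genes were above 0 in at least 1 library and entered the test, and all 9 reached 1 FPKM in at least 4 libraries. The 6 calls held with each library left out in turn. With replicates 1 and 2 alone, 3 genes were called (C2, Cfb and Serping1), and with replicates 3 and 4 alone 1 gene was called (C2), with all 6 differences still above 2 on the log2 scale.

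**Figure D1:**
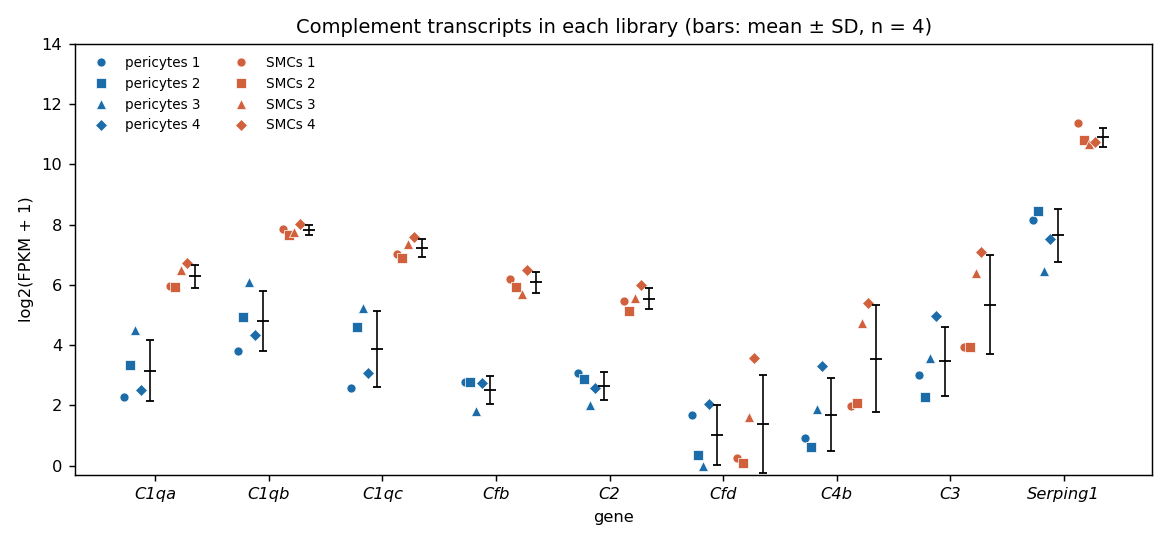
The plot gives log2(FPKM + 1) of the 9 complement genes (horizontal axis) in the 4 pericyte libraries (blue) and the 4 SMC libraries (orange), with a marker shape for each replicate number and bars for mean ± SD (n = 4). For C1qa, C1qb, C1qc, Cfb, C2 and Serping1 all SMC points lie above all pericyte points, whereas for Cfd, C4b and C3 the groups overlap.

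C1qa, C1qb and C1qc lie side by side on the minus strand of chromosome 4 (NCBI Build 37), at chr4:136451832-136454718, chr4:136436044-136442102 and chr4:136445719-136448980. Promoter sequences from RefSeq (GRCm38.p6, from 250 bases before to 50 bases after the gene start, 5′ to 3′) were found for 4 of the 9 genes, C1qb, C1qc, C3 and Cfd. Those of C1qb (chr4:136886151-136886450, minus strand) and C1qc (chr4:136892865-136893164, minus strand) are shown because these chains moved together, with motif matches in capitals.
C1qb: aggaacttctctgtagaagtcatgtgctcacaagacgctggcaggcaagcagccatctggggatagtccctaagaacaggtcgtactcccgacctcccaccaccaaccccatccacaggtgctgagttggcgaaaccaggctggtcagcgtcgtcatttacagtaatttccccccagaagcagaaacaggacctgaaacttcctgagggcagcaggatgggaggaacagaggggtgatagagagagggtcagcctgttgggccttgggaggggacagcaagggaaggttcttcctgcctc
C1qc: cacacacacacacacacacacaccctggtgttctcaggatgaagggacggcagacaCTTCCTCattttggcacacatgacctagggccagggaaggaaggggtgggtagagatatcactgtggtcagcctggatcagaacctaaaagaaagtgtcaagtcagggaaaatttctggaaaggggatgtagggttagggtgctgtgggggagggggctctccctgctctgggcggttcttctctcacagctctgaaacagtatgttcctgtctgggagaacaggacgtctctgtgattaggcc
The capitals in C1qc mark GAGGAAG, a core of sites bound by the myeloid factor PU.1, here on the opposite strand and 194 bases before the start. Either strand of 13.6% of the 32851 RefSeq promoters holds these letters. The C1qb window has none of the 5 motifs searched on both strands. The other motifs were GAAANNGAA, an interferon response element core (8.56% of promoters), TTCNNNGAA, a STAT site (8.30%), TTGNNNAAT, a C/EBP site (11.4%), and TATAAA (13.6%). A match is a description of the letters only.

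C1qb, the most abundant chain transcript, had 13.0, 29.6, 68.0 and 19.3 FPKM in pericyte replicates 1 to 4 and 229, 199, 217 and 261 FPKM in SMC replicates 1 to 4. All SMC libraries were above all pericyte libraries, and pericyte replicate 3 stood nearest to them. The log2 difference was 3.03 (standard error 0.46, limma q = 0.00326). C1qa had 3.82, 9.23, 21.9 and 4.65 FPKM in pericytes and 62.3, 59.5, 90.1 and 104 FPKM in SMCs, a log2 difference of 3.12 (standard error 0.50, limma q = 0.00416). C1qc had 5.03, 23.6, 36.96 and 7.40 FPKM in pericytes and 130, 119, 164 and 190 FPKM in SMCs, a log2 difference of 3.34 (standard error 0.59, limma q = 0.00650). In pericytes all 3 chains ranked the libraries in the same order, lowest in replicate 1, then replicates 4 and 2, and highest in replicate 3.

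The chains kept similar proportions across libraries. C1qb over C1qa, as a ratio of FPKM, was between 2.41 and 4.14 in all 8 libraries, and C1qc over C1qa was between 1.32 and 2.56. The spread of the ratios was small beside that of C1qa itself, which ran from 3.82 to 104 FPKM. Between members, the profiles of C1qa and C1qb over the 8 libraries differed by a root mean square of 0.21 on the log2 scale, each gene centred on its own mean.

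Macrophage and monocyte markers were compared next, since C1q is a product of these cells. Their list of 16 genes was at 4.05 to 4.71 in pericyte libraries and 4.48 to 5.26 in SMC libraries, and the groups overlapped. Of the 16 genes, 6 were higher in SMCs, 3 were higher in pericytes and 7 did not pass, and none was listed at 0 in a whole group. Those higher in SMCs were Adgre1, Fcgr1, Mrc1, Cd163, Mertk and Ms4a7, and those higher in pericytes were Ctss, Tyrobp and Fcer1g. Summed over the list, FPKM was 2388 to 4340 in pericytes and 1644 to 2493 in SMCs. The largest parts of the sum were Lyz2 (656 to 1640 FPKM in pericytes and 778 to 1317 FPKM in SMCs) and Tyrobp, so it says little about the other genes. With calls in both directions, the list did not move as a block with C1q.

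Members of the list went in both directions. Mrc1, the mannose receptor of tissue macrophages, had 0.561 to 2.25 FPKM in pericytes and 4.10 to 11.0 FPKM in SMCs (log2 difference 2.12, limma q = 0.00390). Ms4a7, a gene of tissue macrophages, had 1.08 to 9.42 FPKM in pericytes and 17.6 to 35.1 FPKM in SMCs (log2 difference 2.34, limma q = 0.0247), and its q value reached 0.0693 with single libraries left out (pericyte replicate 1 or 2, or any SMC replicate). Mertk, a receptor for engulfing dead cells, and Cd163, a hemoglobin scavenger receptor, were also higher in SMCs (log2 difference 1.70 and 0.90, limma q = 0.0228 and 0.00466). Mertk, Cd163 and the genes that follow were picked from the list after their values were seen. Tyrobp, an adaptor shared by myeloid and natural killer cells, went the other way, with 664 to 1413 FPKM in pericytes and 254 to 318 FPKM in SMCs (log2 difference -1.99, limma q = 0.00124). Ctss, the antigen-processing protease cathepsin S of macrophages, dendritic cells and B cells, had 286 to 401 FPKM in pericytes and 95.3 to 168 FPKM in SMCs (limma q = 0.00144). The 6 dendritic cell genes were at 2.89 to 4.01 in pericytes and 1.94 to 2.48 in SMCs. Of these, 2 were higher in pericytes (Flt3 and Cd209a) and 4 did not pass, among them Zbtb46 (limma q = 0.991). The gate was set to leave out cells stained for CD45, and the part of these cells in the C1q difference was not tested.

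**Figure D2:**
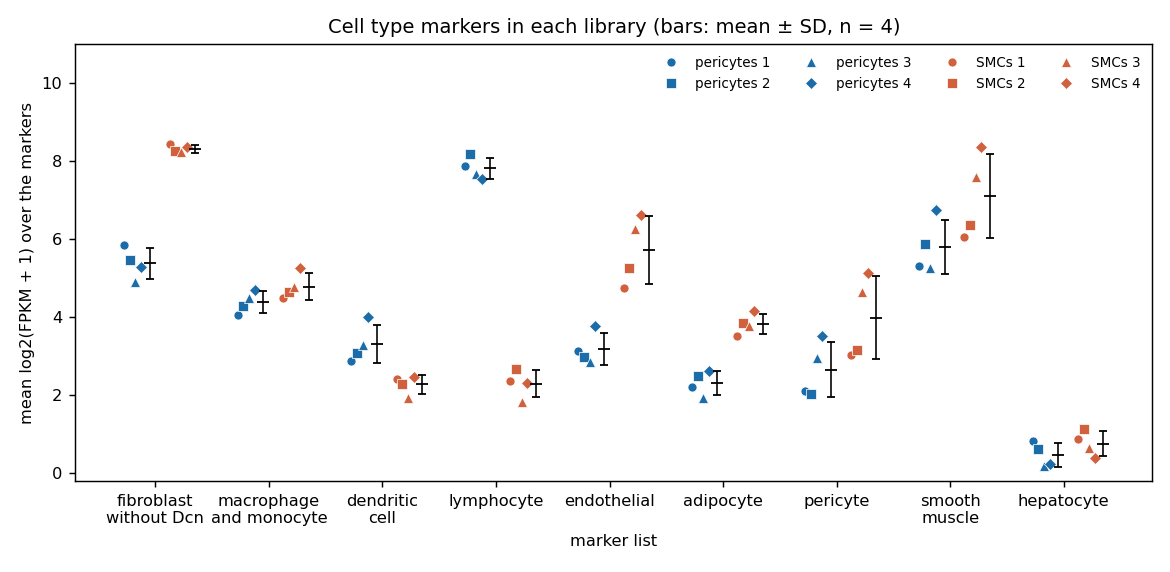
The plot gives the mean of log2(FPKM + 1) over 9 marker lists (horizontal axis) in each pericyte library (blue) and SMC library (orange), with a marker shape for each replicate number and bars for mean ± SD (n = 4). Fibroblast (without Dcn), endothelial and adipocyte lists are higher in all SMC libraries, lymphocyte and dendritic cell lists are higher in all pericyte libraries, and macrophage, pericyte, smooth muscle and hepatocyte lists overlap.

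Serping1, the gene of C1 inhibitor on chromosome 2 (chr2:84605544-84615601, minus strand), had the highest level of the 9 genes. It had 283, 348, 86.8 and 185 FPKM in pericyte replicates 1 to 4 and 2672, 1783, 1656 and 1706 FPKM in SMC replicates 1 to 4. By mean FPKM it ranked 28 among the 37979 genes in SMCs and 622 in pericytes, whereas C1qb, the next of the 9 genes, ranked 590 in SMCs and 3370 in pericytes. The groups did not overlap, SMC replicate 1 was above the other SMC libraries, and pericyte replicate 3 was the lowest library. The log2 difference was 3.26 (standard error 0.43, limma q = 0.00177).

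C1ra and C1s, which encode the proteases that C1 inhibitor blocks, were higher in SMCs too. C1s had 12.8 to 29.6 FPKM in pericytes and 155 to 221 FPKM in SMCs, a log2 difference of 3.20 (standard error 0.29, limma q = 3.5e-04). C1ra had 5.68 to 11.0 FPKM in pericytes and 46.5 to 68.4 FPKM in SMCs, a log2 difference of 2.69 (standard error 0.22, limma q = 2.3e-04). The annotated span of C1rb (chr6:124462790-124531062, plus strand) overlaps those of C1ra and C1s, so reads may be divided among them. C1rb itself had at most 0.926 FPKM in any library. Within a library Serping1 exceeded C1s by 5.40 to 27.3 times in pericytes and 7.77 to 12.9 times in SMCs, so the transcript of the inhibitor was above that of its target protease in all 8 libraries. Relative to the C1q chain C1qa, C1s was between 0.733 and 7.74 times its FPKM in pericytes and between 1.72 and 3.71 times in SMCs.

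Most fibroblast markers moved with these genes. Of 12 fibroblast genes, 10 were higher in SMCs, 1 (Dcn) was higher in pericytes and 1 (Dpp4) did not pass. Dpp4, a surface peptidase of fibroblast progenitors, had 15.0 to 44.9 FPKM in pericytes and 9.68 to 17.0 FPKM in SMCs (log2 difference -1.11, limma q = 0.0622). All 12 genes averaged 5.25 to 6.22 in pericyte libraries and 7.54 to 7.74 in SMC libraries. Their FPKM summed to 1248 to 2192 in pericytes and 6290 to 8586 in SMCs. Dcn was listed at 0 in all SMC libraries and had 509 to 1165 FPKM in pericytes, so the list was also taken without it. Whether that 0 is a measured absence or a missing value cannot be told from the deposited values, so the call of Dcn is uncertain. The other 11 genes, Dpp4 included, averaged 4.91 to 5.86 in pericyte libraries and 8.22 to 8.45 in SMC libraries, and their FPKM summed to 738 to 1072 in pericytes and 6290 to 8586 in SMCs. Lum, a collagen-binding proteoglycan, had 51.1 to 139.5 FPKM in pericytes and 1131 to 1971 FPKM in SMCs (log2 difference 4.11, limma q = 2.6e-04). Mfap5, a microfibril protein, had 26.6 to 75.5 FPKM in pericytes and 449.9 to 1031 FPKM in SMCs (log2 difference 3.86, limma q = 5.3e-04). Pi16, a gene of fibroblast progenitors, had 1.16 to 8.97 FPKM in pericytes and 45.6 to 121 FPKM in SMCs (log2 difference 3.69, limma q = 0.00344). The part of fibroblasts in the difference of Serping1, C1ra and C1s was not tested.

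C2 and Cfb, neighbouring genes on the minus strand of chromosome 17 (chr17:34999549-35035397 and chr17:34993319-34999463), encode related proteases that supply the enzymatic subunit of the classical and the alternative C3 convertase. Cfb had 5.80, 5.83, 2.52 and 5.64 FPKM in pericyte replicates 1 to 4 and 73.1, 60.6, 51.0 and 89.8 FPKM in SMC replicates 1 to 4. The log2 difference was 3.57 (standard error 0.27, limma q = 1.6e-04), the largest of the 9 genes with all libraries used. Without pericyte replicate 3 it was 3.33, below C1qc (3.79), C1qa (3.58) and C1qb (3.46). C2 had 7.37, 6.39, 3.04 and 5.03 FPKM in pericytes and 43.5, 34.3, 46.4 and 62.7 FPKM in SMCs, a log2 difference of 2.91 (standard error 0.27, limma q = 3.5e-04). For both genes the groups were well apart, and pericyte replicate 3 was the lowest library. Cfb over C2 was 0.786 to 1.12 in pericytes and 1.10 to 1.76 in SMCs, so these transcripts were of similar abundance in every library. Whether reads were counted by strand is not given in the sources used here.

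C3, the gene of the protein at which the pathways meet, did not pass without a block on the replicate number (with it, limma q = 0.0263). It lies at chr17:57343397-57367559 on the minus strand. Its RefSeq promoter (GRCm38.p6, chr17:57228087-57228386, minus strand) is shown as that of the convertase substrate, with motif matches in capitals.
C3: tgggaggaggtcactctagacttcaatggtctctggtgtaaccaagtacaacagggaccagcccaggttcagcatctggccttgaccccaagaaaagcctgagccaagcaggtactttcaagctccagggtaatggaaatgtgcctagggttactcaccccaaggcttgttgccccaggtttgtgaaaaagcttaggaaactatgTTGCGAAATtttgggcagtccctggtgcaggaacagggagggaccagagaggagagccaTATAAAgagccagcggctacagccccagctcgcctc
The first match is TTGNNNAAT, the C/EBP site of liver and acute phase genes, 45 bases before the start, and the second is TATAAA, which begins 14 bases after the listed start. C3 had 7.15, 3.85, 10.9 and 30.3 FPKM in pericyte replicates 1 to 4 and 14.4, 14.3, 84.2 and 135 FPKM in SMC replicates 1 to 4. SMC replicates 1 and 2 fell below pericyte replicate 4, so the groups overlapped. The log2 difference was 1.88 (standard error 0.91, 95% confidence interval -0.26 to 4.02, limma q = 0.215).

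C4b, the C4 gene at chr17:34865325-34880827 on the minus strand, shared this profile. It had 0.894, 0.541, 2.73 and 8.97 FPKM in pericyte replicates 1 to 4 and 2.96, 3.25, 25.6 and 41.7 FPKM in SMC replicates 1 to 4. Again SMC replicates 1 and 2 fell below pericyte replicate 4. The log2 difference was 1.87 (standard error 0.98, 95% confidence interval -0.44 to 4.17, limma q = 0.257). With the replicate number as a block C4b passed (limma q = 0.0245). Of the 36 pairs among the 9 genes, C3 and C4b had the most similar profiles, with a root mean square difference of 0.16 on the log2 scale. C4a, a close copy of C4b, was between 0.195 and 1.17 FPKM in all libraries. The longest annotated transcripts of both are 95.9% identical and 35.2% of the 50-base windows of C4b occur unchanged in C4a, so reads could be split between them and the level of C4b is uncertain.

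The levels of C3 and C4b also varied with the replicate number, a split that was chosen with earlier results of these data known and was not tested. In SMCs the mean FPKM of replicates 3 and 4 over that of replicates 1 and 2 was 7.63 for C3 and 10.8 for C4b. In pericytes the same ratio was 3.75 for C3 and 8.16 for C4b. In all 4 same-numbered comparisons the SMC library was higher for both genes. With a covariate that separates replicates 1 and 2 from replicates 3 and 4, both genes passed (limma q = 0.0173 for C3 and 0.0152 for C4b), with the same log2 differences, and since the split was chosen with such results known, these calls are no independent support. Within replicates 1 and 2 the SMC libraries were higher by 1.29 for C3 and 1.26 for C4b on the log2 scale, and within replicates 3 and 4 by 2.48 and 2.47. For the other genes this ratio in SMCs was 1.60 for C1qa, 1.43 for C1qc, 1.40 for C2, 1.12 for C1qb, 1.05 for Cfb and 0.755 for Serping1. In pericytes it was 2.04 for C1qa, 1.55 for C1qc, 0.586 for C2, 2.05 for C1qb, 0.701 for Cfb and 0.430 for Serping1. For Cfd it was 1.25 in pericytes and 54.4 in SMCs, where replicates 1 and 2 had only 0.184 and 0.0563 FPKM. The smooth muscle list also ran higher in SMC replicates 3 and 4, at 7.60 and 8.37 against 6.06 and 6.36 in replicates 1 and 2, as did the pericyte list (4.65 and 5.14 against 3.02 and 3.17) and the endothelial list (6.27 and 6.63 against 4.76 and 5.26). The macrophage and monocyte list was higher there by less (4.77 and 5.26 against 4.48 and 4.64), with Csf1r at 36.99 and 68.3 against 12.6 and 13.5 FPKM. The fibroblast list without Dcn was level (8.22 and 8.35 against 8.45 and 8.26), with Col1a1 higher (1702 and 1478 against 525 and 580 FPKM) and Dpt lower there (117 and 120 against 309 and 233 FPKM). In pericytes the pericyte list (2.96 and 3.51 against 2.10 and 2.04) and the macrophage and monocyte list (4.49 and 4.71 against 4.05 and 4.29) were also higher in replicates 3 and 4. The smooth muscle list was lowest in pericyte replicate 3 (5.25) and highest in pericyte replicate 4 (6.75). The endothelial list was likewise lowest in pericyte replicate 3 (2.87) and highest in pericyte replicate 4 (3.79). The part of these cells in the C3 and C4b profile was not tested.

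Cfd, the factor D gene on chromosome 10 (chr10:79353598-79355401, plus strand), was the least abundant of the 9 genes. It had 2.25, 0.278 and 3.17 FPKM in pericyte replicates 1, 2 and 4 and was listed at 0 in pericyte replicate 3. SMC replicates 1 to 4 had 0.184, 0.0563, 2.07 and 11.0 FPKM. The groups overlapped, and the SMC library was higher in 2 of 4 same-numbered comparisons. The log2 difference was 0.35 (standard error 0.87, 95% confidence interval -1.69 to 2.40, limma q = 0.832), with the pericyte library listed at 0 entering as 0, and it turned to -0.38 without SMC replicate 4.

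Adipocyte markers were set beside Cfd. The list of 8 was at 1.94 to 2.64 in pericytes and 3.52 to 4.15 in SMCs, and 4 of the 8 genes were higher in SMCs. Fabp4 and Cd36, which handle fatty acids in adipocytes and capillary endothelium, had 109 to 347 and 26.7 to 63.5 FPKM in pericytes and 943 to 2968 and 135 to 505 FPKM in SMCs (limma q = 0.00330 and 0.00378). Lpl, a lipase of adipocytes and muscle, had 10.5 to 31.4 FPKM in pericytes and 131 to 228 FPKM in SMCs (limma q = 0.00115). Adipoq, the adiponectin gene and the more specific adipocyte marker, had at most 4.29 FPKM in pericytes and 5.48 to 22.0 FPKM in SMCs (limma q = 0.0261), with q values up to 0.0848 when single libraries were left out (all but pericyte replicate 2 and SMC replicate 1). The lipid droplet gene Plin1 was at most 0.274 FPKM in any library. The part of adipocytes in the level of Cfd was not tested.

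**Figure D3:**
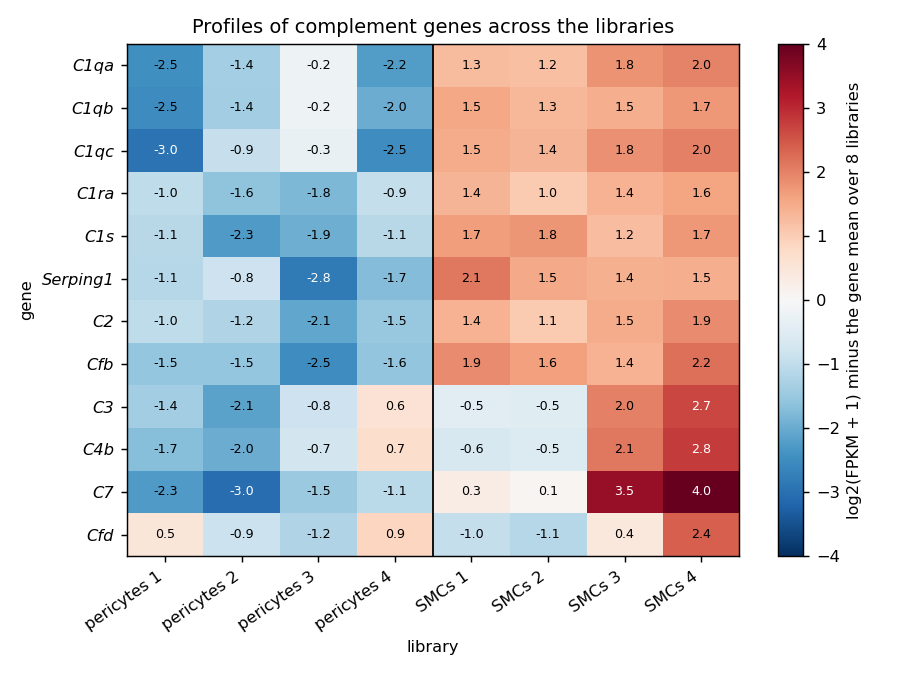
The heat map gives log2(FPKM + 1) minus the mean of each gene over the 8 libraries, for 12 complement genes (rows) in pericyte and SMC libraries (columns), from -4 (blue) to 4 (red). C1qa, C1qb, C1qc, C1ra, C1s, Serping1, C2 and Cfb are above their mean in all SMC libraries, whereas C3 and C4b are above it in SMC replicates 3 and 4 and pericyte replicate 4.

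The other 41 complement genes listed show where these 9 stand in the pathway. Of the 40 that could be tested, 11 were higher in SMCs, 3 were higher in pericytes and 26 did not pass, with a median log2 difference of 0.20. Over all genes the share higher in pericytes was 10.6%. At a log2 fold change above 2, 5 were higher in SMCs and 3 were higher in pericytes, where 3.24% of all genes were. A mean of 1 FPKM was not reached in either group by 19 of the 41. C4bp was listed at 0 in all libraries and was not tested.

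Among the 5 soluble regulators tested, 2 were higher in SMCs. Clu, the gene of clusterin, which blocks the membrane attack complex, had 46.8 to 69.0 FPKM in pericytes and 458 to 542 FPKM in SMCs (log2 difference 3.02, standard error 0.13, limma q = 1.8e-05). Vtn was also higher in SMCs by a smaller amount (log2 difference 1.56, limma q = 0.00211). Of the 6 membrane regulators, 2 passed, both copies of the gene for CD59, which stops pore formation. Cd59a had 12.8 to 27.4 FPKM in pericytes and 38.7 to 79.1 FPKM in SMCs, and Cd59b had 2.70 to 4.38 and 9.43 to 13.7 FPKM (limma q = 0.00824 and 7.9e-04). Cd59a and Cd59b are duplicated genes between which reads may be divided.

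Terminal pathway genes were largely silent. Of the 7, 5 stayed under a mean of 1 FPKM in both groups, and only C7 passed. C7, a pore component that mesenchymal cells also secrete, had 0.0763 to 3.25 FPKM in pericytes and 9.81, 8.40, 97.5 and 142 FPKM in SMC replicates 1 to 4, with the higher levels in SMC replicates 3 and 4, as for C3 and C4b. Its log2 difference was 3.93 (standard error 1.02, limma q = 0.0320), and the q value reached 0.0950 with single libraries left out (any pericyte replicate, or SMC replicate 3 or 4). In the lectin pathway 2 of 8 genes passed, Masp1 (log2 difference 1.67) and Fcna. Fcna, which encodes a ficolin of macrophages, had 13.5, 17.2, 64.5 and 9.19 FPKM in SMC replicates 1 to 4 and at most 1.70 FPKM in pericytes (log2 difference 3.56, limma q = 0.00520). The ficolin gene Fcnb leaned the other way and did not pass (log2 difference -1.48, limma q = 0.159). It had 3.23 to 15.9 FPKM in pericytes and 1.08 to 7.45 FPKM in SMCs. Cfp, the properdin gene, was at 55.5 to 105 FPKM in pericytes and 50.6 to 98.8 FPKM in SMCs (limma q = 0.703).

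Receptors went in both directions, with 2 of 9 higher in SMCs (C3ar1 and Cd93) and 3 higher in pericytes. In these 3 genes the groups did not overlap. Over all genes, 12.1% had their pericyte libraries above all SMC libraries. Cr2, the complement receptor of B cells and follicular dendritic cells, had 11.6 to 22.4 FPKM in pericytes and 0.279 to 0.632 FPKM in SMCs (log2 difference -3.63, standard error 0.19, limma q = 3.6e-05). Itgb2, the shared integrin chain of the C3 fragment receptors of leukocytes, had 59.0 to 191 FPKM in pericytes and 5.23 to 21.4 FPKM in SMCs (log2 difference -3.53, limma q = 0.00375). Itgax, which pairs with Itgb2, had 2.42 to 17.7 FPKM in pericytes and 0.490 to 1.36 FPKM in SMCs (log2 difference -2.003, limma q = 0.0397), with q values up to 0.109 when single libraries were left out (pericyte replicate 3 or 4, or any SMC replicate). Pericyte libraries also had the higher lymphocyte markers, with FPKM summing to 1697 to 3356 against 25.2 to 53.2 in SMC libraries. The gate was set to leave out cells stained for CD45, but its gene Ptprc had 80.6 to 230 FPKM in pericytes and 4.34 to 11.9 FPKM in SMCs. The part of lymphocytes in the receptor differences was not tested.

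The anaphylatoxin receptors, which sense the released fragments of C3 and C5 on myeloid cells, had smaller differences, and C3ar1 but not C5ar1 passed. C3ar1 had 0.311 to 4.02 FPKM in pericytes and 4.43 to 6.70 FPKM in SMCs (log2 difference 1.51, limma q = 0.0331), and its q value reached 0.102 when single libraries were left out (any but pericyte replicate 3). It also did not pass with the replicate number as a block (limma q = 0.0712) or with all genes unfiltered (limma q = 0.0729). C5ar1 did pass when genes had to reach 1 FPKM in 4 or more libraries (limma q = 0.0236). C5ar1 had 2.82, 2.62, 17.5 and 3.86 FPKM in pericyte replicates 1 to 4 and 14.7 to 17.4 FPKM in SMCs (log2 difference 1.51, limma q = 0.0783), and passed without pericyte replicate 3 (log2 difference 2.06, limma q = 3.2e-04). Pericyte replicate 3 was the highest pericyte library for C3ar1 and C5ar1, as it was for the C1q chains, but not for the further C5a receptor C5ar2, which had 0.273, 0.887, 0.351 and 0.0601 FPKM in pericyte replicates 1 to 4 and 0.783 to 1.11 FPKM in SMCs (limma q = 0.0673).

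**Figure D4:**
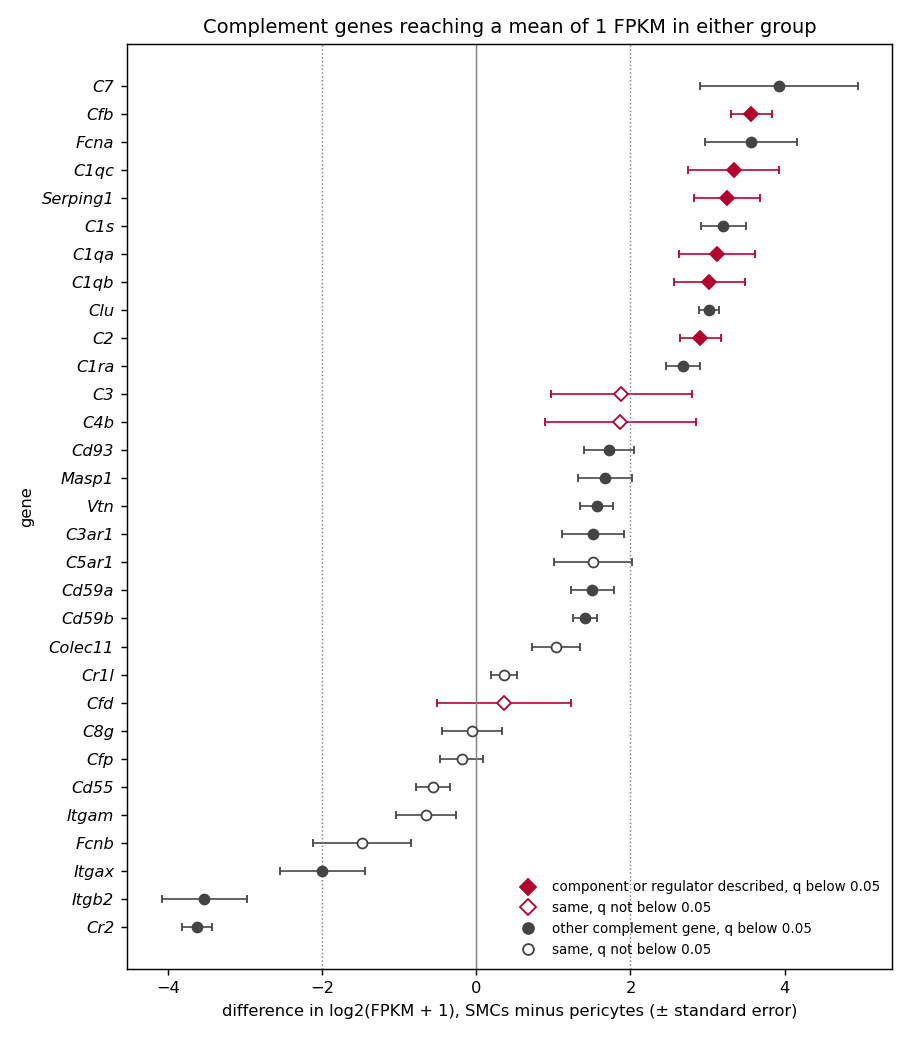
The plot gives the difference in log2(FPKM + 1), SMCs minus pericytes, with its standard error, for complement genes that reach a mean of 1 FPKM in either group. Red diamonds are the 9 genes described, grey circles the other complement genes, filled symbols have a limma q value below 0.05, and dotted lines mark a log2 fold change of 2. C7, Cfb, Fcna, the C1q chains, Serping1, C1s, Clu, C2 and C1ra lie above 2, and Itgax, Itgb2 and Cr2 lie below -2.

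Genes with the most similar profiles were sought among 13603 other genes whose mean level reached 1 FPKM, by the root mean square difference of centred log2(FPKM + 1) over the 8 libraries. For Serping1 the nearest genes were Cd34 (0.20), Rnase4 (0.22) and Nnmt (0.23). Cd34, a surface protein of fibroblast progenitors and endothelium, had 26.6 to 89.4 FPKM in pericytes and 356 to 629 FPKM in SMCs. For C1qa they were Sfrp2 (0.38), Serpina3n (0.45) and Cytl1 (0.52). Sfrp2, a secreted Wnt modulator, had 1.07 to 4.72 FPKM in pericytes and 24.6 to 51.9 FPKM in SMCs. The other C1q chains lay nearer to C1qa than any of these.

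For C3 the nearest genes were Bcam (0.26), Epas1 (0.29) and Avpr1a (0.30), and for C4b they were Cspg4 (0.29), Bcam (0.29) and Epas1 (0.32). Cspg4 encodes NG2, a mural cell proteoglycan, and had 0.840 to 10.5 FPKM in pericytes and 2.24 to 33.1 FPKM in SMCs. Avpr1a, the vasopressin receptor of vascular smooth muscle, had 1.34 to 21.7 FPKM in pericytes and 5.98 to 53.2 FPKM in SMCs. For Cfd no gene was close, the nearest being Pde4c (0.54), Itga7 (0.60) and Dgkg (0.63). The libraries are the same for all genes, so these likenesses describe the 8 libraries only.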

How the data were processed

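RNA from sorted pericytes and SMCs was reverse transcribed and amplified (SMART-Seq v4), and libraries were made with Nextera XT. The authors aligned reads to NCBI Build 37 with Bowtie2 and TopHat and an Ensembl annotation, and deposited FPKM per gene and library. The program that computed FPKM is not given in the sources used here. FPKM are not counts, so the reads behind a value are unknown and no counting error is given. Low FPKM values (under 0.3) gave relative depths only, which spanned a ratio of 1.23.

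The log2(FPKM + 1) scale was used, which understates fold changes of low genes. Groups were compared by limma 3.58.1 (R 4.3.3, lmFit and eBayes, checked on simulated data), with Benjamini-Hochberg adjustment (q value) over the 27414 genes that had a value above 0 somewhere. Thresholds followed the study, with a q value of 0.05 and a log2 fold change of 2. p-values measure the spread between libraries made of pooled sorts. Gene positions came from GENCODE vM1. Python 3.11.15 was used for the rest.

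The complement genes, lists and tests were chosen with earlier results of these data known. Named genes were the 9 genes, C1ra, C1s, C3ar1, C5ar1, other complement genes past both thresholds, up to 4 such markers per list, markers listed at 0 in a whole group and the 3 nearest profiles of C1qa, C3, C4b, Cfd and Serping1. One gene of the complement list was left out of its counts and is not reported here. Others were named after their values were seen. Older symbols were used for Adgre1, Cd55b and C5ar2. Alternatives tried were 0.1 as the pseudocount, genes reaching 1 FPKM in 4 or more libraries, all genes unfiltered, quantile and TPM scaling, the replicate number as a block, a covariate separating replicates 1 and 2 from 3 and 4, an intensity trend, and each library left out in turn. Fits on replicates 1 and 2 or 3 and 4 alone were added after seeing the data.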

Additional observations from a re-analysis of the deposited data

Results flagged for a closer look

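Within groups of 4 libraries, a library was looked at again when its gap to the nearest other library, divided by the range of the group on the log2(FPKM + 1) scale, exceeded Dixon's 95% critical value. This happened in 4 of 57 groups tested, where chance alone gives about 1 in 20. Serping1 in SMC replicate 1 was high at 2672 FPKM. Cfb in pericyte replicate 3 was low at 2.52 FPKM. Mrc1 in pericyte replicate 4 was high at 2.25 FPKM, below all SMC libraries. Adipoq in pericyte replicate 2 was high at 4.29 FPKM, also below all SMC libraries. The calls of all 4 genes held without these libraries.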

How the results depend on the processing

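The 6 complement genes higher in SMCs were called under all 16 alternatives that were chosen with earlier results of these data known (largest limma q = 0.0234, for C1qc), and Cfd under none of them. The log2 difference of Cfd was between -0.38 (without SMC replicate 4) and 0.79 with single libraries left out, and -0.87 with replicates 1 and 2 alone. C3 and C4b passed with the covariate that separates replicates 1 and 2 from 3 and 4, and under the replicate block (limma q = 0.0263 and 0.0245). C3ar1 did not pass under the block (limma q = 0.0712). Without the filter C3ar1, C7, Itgax, Ms4a7 and Adipoq did not pass, Itgax did not pass under TPM scaling, and C5ar1 passed with the filter at 1 FPKM. Same-numbered libraries deviated together with correlations across genes of 0.319 to 0.474 for replicates 2 to 4 and 0.0794 for replicate 1, and 5 of 8 libraries correlated best with their own number. Pairing was accepted only where every pair exceeded 0.1, so the block is given as a hint from the data. Under the block 8 of the 9 genes were called, 6 of them at a log2 fold change above 2, where 3175 of all 27414 genes were higher in SMCs and 739 past the fold threshold.

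Fits on 2 libraries per group, added after seeing the data, made fewer calls. With replicates 1 and 2 alone, 3 of the 9 genes were called higher in SMCs (3 with the fold threshold), with 4 other complement genes higher in SMCs (3 with the fold threshold), and 1 higher in pericytes (0 with the fold threshold in limma, against 2 past it at an unadjusted p under 0.05). Over all genes, 798 were higher in SMCs and 912 in pericytes, or 291 and 516 with the fold threshold. With replicates 3 and 4 alone, 1 of the 9 genes was called (1 with the fold threshold) and 3 other complement genes were higher in SMCs and 3 in pericytes (3 and 3 with the fold threshold). Over all genes, 1477 were higher in SMCs and 1877 in pericytes, or 477 and 661 with the fold threshold. A pseudocount of 0.1 raised the genes past the fold threshold in SMCs from 728 to 1421 and in pericytes from 888 to 1328, and those in SMCs from 5 to 8 among the other complement genes, and changed no call of the 9 genes. The number of fragments behind low levels, as for Cfd and C4a, is unknown.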
